A study of Homo sapiens with 6 samples.

Results

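The ERBB receptors and the growth factors that bind them were examined in BRCA2 knockout and wild-type HCT116 cells, an established human colon carcinoma line. The family was taken as NRG1, EGFR, ERBB2, ERBB3, AREG, EREG, HBEGF, TGFA and BTC, and a member was measured where a probe set of the array carried its symbol and no other. Of the 9 members, 8 were measured, each by 1 probe set, out of 13139 genes and 19458 probe sets in all. AREG was not analysed here. The family was selected on the difference of NRG1 between knockout and wild type in these same arrays, so the values of NRG1 are given as a description and without a test.

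The BRCA2 knockout cells descend from HCT116 by disruption of both alleles of the gene, one after the other, through homologous recombination, and the wild-type cells are the HCT116 line from a public collection. BRCA2 mediates strand exchange in the repair of DNA breaks by homologous recombination. All cells were kept in McCoy's 5A medium with fetal bovine serum and glutamine, and no treatment set the genotypes apart. There were 3 arrays per genotype, which the labels call technical replicates, so the p-values cover array-to-array spread and say nothing of independent cultures. Each genotype is 1 line as far as the labels tell, and the loss of BRCA2 cannot be told apart from whatever else distinguishes these lines. BRCA2 itself was not analysed here, so the genotype labels were not checked against the targeted gene.

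The values are log2 probe set summaries from Affymetrix whole-transcript arrays, and the number of arrays limits their precision. They carry no detection calls, and levels are compared between arrays and not between genes. Array medians ran from 7.41 to 7.80 in the knockout and from 7.36 to 7.71 in the wild type, and the highest median in each genotype belonged to knockout array 2 and wild-type array 1. Of the 12 colon epithelium markers, EPCAM, an epithelial adhesion molecule gene, was at 10.12 ± 0.32 in the knockout and 9.88 ± 0.36 in the wild type (SD, n = 3 arrays each, as in all means below). CEACAM5, a colon surface glycoprotein gene, was at 5.70 ± 0.69 in the knockout and 5.72 ± 0.42 in the wild type. Without detection calls, such values do not tell which markers were expressed. Both were picked after their values had been seen. The 12 colon epithelium markers had array means of 8.35 to 8.90 in the knockout and 8.22 to 8.58 in the wild type. Of the 12, 10 had a difference above 0 and 2 below. The arrays did not overlap for 4 of the 12, all higher in the knockout, or 33.3%. None of the 12 passed an adjusted p of 0.05 in limma, with 1 higher at an unadjusted p under 0.05, the E-cadherin gene CDH1. Of all probe sets, 12.2% were under that unadjusted p and 19.7% did not overlap. Marker lists of 3 other tissue classes had no called member either, and 1 of these genes, for fibroblast and endothelial cells, was higher at an unadjusted p under 0.05. Their array means were 5.34 to 5.88 in the knockout and 5.44 to 5.99 in the wild type for lymphocyte and myeloid genes (6 measured), and for fibroblast and endothelial genes (9 measured) they were 6.22 to 7.15 in the knockout and 6.02 to 6.91 in the wild type. For glial and neural genes (6 measured) they were 5.36 to 7.85 in the knockout and 7.09 to 7.50 in the wild type, the lowest of these resting on a value of -4.73 for NCAM1, named after its values had been seen, on knockout array 1. The part of such markers in the results below was not tested.

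ERBB receptors are transmembrane tyrosine kinases that pair with each other once a ligand with an EGF-like domain binds. EGF, TGF-alpha and amphiregulin bind EGFR, while heparin-binding EGF, betacellulin and epiregulin bind both EGFR and ERBB4, and neuregulin 1 binds ERBB3 and ERBB4. ERBB2 has no known ligand of its own and acts as the preferred partner, and ERBB3 has little kinase activity and docks PI3-kinase. The ligands are made as membrane proteins and released by metalloproteases, and in the intestinal epithelium the pathway drives growth and renewal.

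The difference between the genotypes was uneven over the family. NRG1 was about 8.82-fold higher in the knockout, and its receptor ERBB3 and the partner receptor ERBB2 were higher on every knockout array by 0.92 and 0.74 on the log2 scale, without passing the test. EREG was lower on every knockout array by 0.62, again without passing. BTC and EGFR had differences of similar size below 0, HBEGF one above 0, and TGFA was near 0, all with arrays that overlapped.

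**Figure D1:**
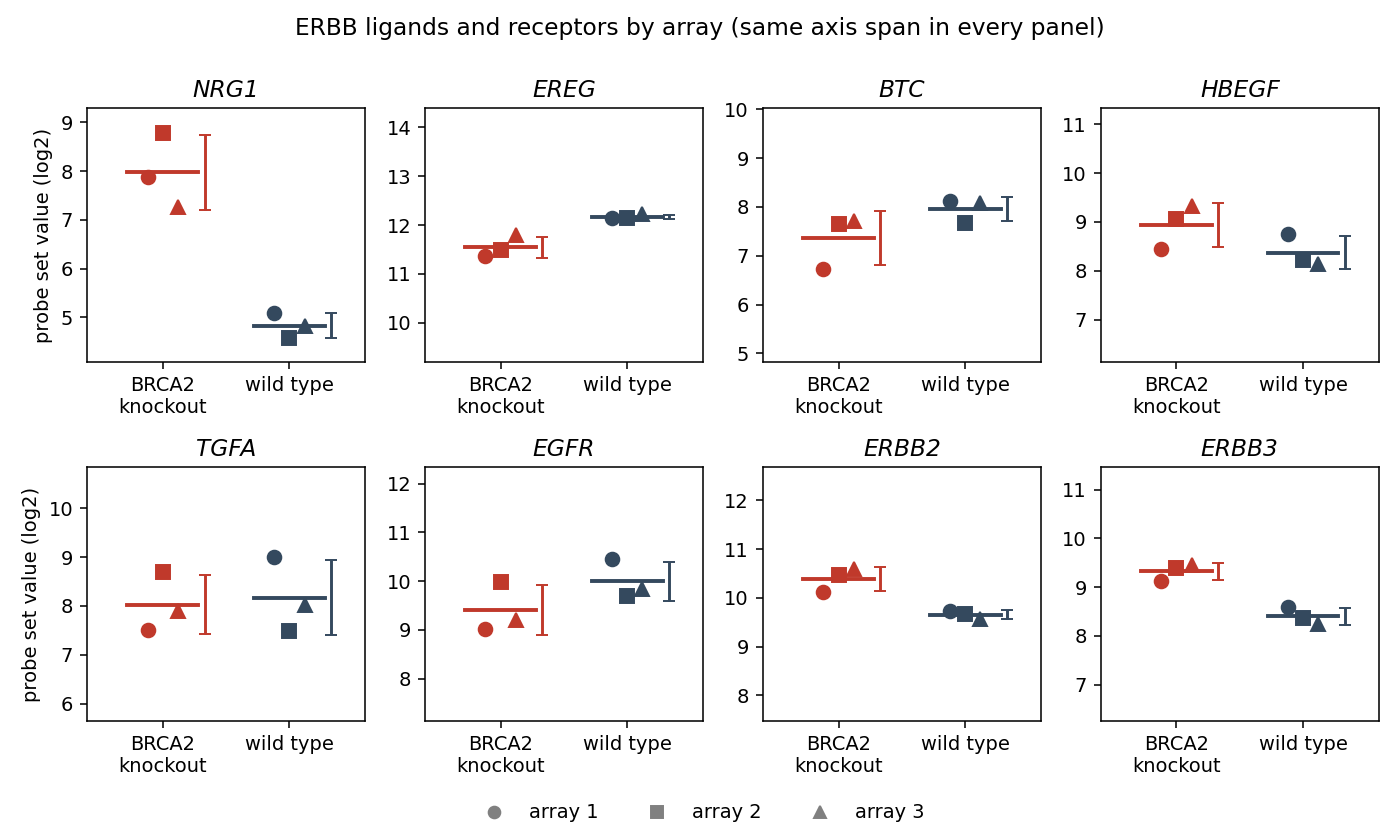
Log2 probe set values of the 8 measured ERBB ligands and receptors, with the BRCA2 knockout left of the wild type in each panel. Symbols are arrays, horizontal lines are means and bars are the SD over 3 arrays. The knockout arrays of NRG1 lie between 7.26 and 8.79, all above the wild-type arrays.

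Among the ligands, NRG1, the neuregulin 1 gene, had values of 7.87, 8.79 and 7.26 on knockout arrays 1, 2 and 3, against 5.09, 4.59 and 4.82 on wild-type arrays 1, 2 and 3. The lowest knockout array was well above the highest wild-type array, and the spread was wider in the knockout. The means were 7.97 ± 0.77 in the knockout and 4.83 ± 0.25 in the wild type, a difference of 3.14 ± 0.42 (SE of the moderated fit). Of the 13139 genes, 30 had a larger positive difference. In both genotypes the highest NRG1 value was on the array of highest median, and without these 2 arrays the difference was 2.86. NRG1 is a long gene with many isoforms that differ in their first exons, and 1 summary value per array does not tell them apart.

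EREG, the epiregulin gene, was at 11.37, 11.49 and 11.79 on the knockout arrays and at 12.15, 12.15 and 12.22 on the wild-type arrays. Every knockout array was below every wild-type array. The difference was -0.62 ± 0.25, with a 95% interval of -1.21 to -0.04, or 1.54-fold lower in the knockout, and limma's adjusted p was 0.377. BTC, the betacellulin gene, was at 6.73, 7.64 and 7.72 on the knockout arrays and at 8.12, 7.67 and 8.08 on the wild-type arrays. Its groups overlapped by a small margin, since knockout array 3 exceeded wild-type array 2. The difference was -0.59 ± 0.35 (95% interval -1.41 to 0.23, limma adjusted p = 0.548).

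HBEGF, which encodes heparin-binding EGF-like growth factor, was at 8.45, 9.06 and 9.32 on the knockout arrays and at 8.75, 8.22 and 8.14 on the wild-type arrays. Only knockout array 1 lay within the range of the wild type. The difference was 0.57 ± 0.33 (95% interval -0.21 to 1.35, limma adjusted p = 0.542). TGFA, the gene of transforming growth factor alpha, was at 7.50, 8.69 and 7.90 on the knockout arrays and at 9.0003, 7.48 and 8.02 on the wild-type arrays. The groups overlapped throughout, and in each genotype the highest value was again on the array of highest median. The difference was -0.14 ± 0.48, and its 95% interval of -1.27 to 1.00 was the widest of the 7 members other than NRG1 (limma adjusted p = 0.927). TGFA changed sign with an array left out (0.13 without knockout array 1 and 0.28 without wild-type array 1).

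Among the receptors, ERBB3, the neuregulin receptor gene, was at 9.12, 9.39 and 9.46 on the knockout arrays and at 8.59, 8.37 and 8.25 on the wild-type arrays. No arrays overlapped, and the spread within each genotype was small. The means were 9.32 ± 0.18 in the knockout and 8.40 ± 0.17 in the wild type, a difference of 0.92 ± 0.25 with a 95% interval of 0.33 to 1.52, or 1.89-fold (limma adjusted p = 0.215). With array weights the adjusted p was 0.0433, and over the other alternatives with a test it was higher than 0.05, up to 0.731.

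ERBB2, the gene of the receptor without a ligand, was at 10.12, 10.46 and 10.59 on the knockout arrays and at 9.74, 9.66 and 9.56 on the wild-type arrays. These groups did not overlap either. The difference was 0.74 ± 0.25 with a 95% interval of 0.14 to 1.34, or 1.67-fold (limma adjusted p = 0.309). EGFR, the receptor gene of the EGF-type ligands, was at 9.01, 9.99 and 9.21 on the knockout arrays and at 10.45, 9.70 and 9.83 on the wild-type arrays. Knockout array 2 lay within the wild-type range and the other knockout arrays below it. The difference was -0.59 ± 0.36 (95% interval -1.44 to 0.27, limma adjusted p = 0.561).

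None of the 7 members other than NRG1 passed an adjusted p of 0.05 in limma, where 0.570% of all probe sets did. At an unadjusted p under 0.05, ERBB2 and ERBB3 were higher and EREG was lower, against 6.92% of all probe sets higher and 5.28% lower, or 12.2% in all. The test of the design without moderation called none of the 7 after adjustment, array weights called ERBB3, and a variance trend called EREG. Knockout and wild-type arrays were fully apart for 3 of the 7, with 2 higher and 1 lower, against 12.0% and 7.70% of all probe sets, or 19.7% in all. The median difference of the 7 was -0.14, against 0.07 over all genes.

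Arrays were centred on a common median because EGFR, TGFA and NRG1 peaked on the array of highest median in both genotypes. After centring, EGFR was at 9.13, 9.72 and 9.33 on the knockout arrays and at 10.27, 9.87 and 9.88 on the wild-type arrays, and BTC was at 6.84, 7.38 and 7.83 on the knockout arrays and at 7.94, 7.84 and 8.12 on the wild-type arrays. The arrays of both genes then no longer overlapped, by a gap of 0.154 for EGFR and of 0.0077 for BTC. Of the 7 members other than NRG1, 3 were then lower (EREG, BTC and EGFR) and 2 higher (ERBB2 and ERBB3) on every knockout array, against 10.8% and 9.80% of all probe sets after centring, or 20.6% in all. The differences themselves moved little, to -0.61 for EGFR and -0.62 for BTC, and none of the 7 was called by limma after centring.

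**Figure D2:**
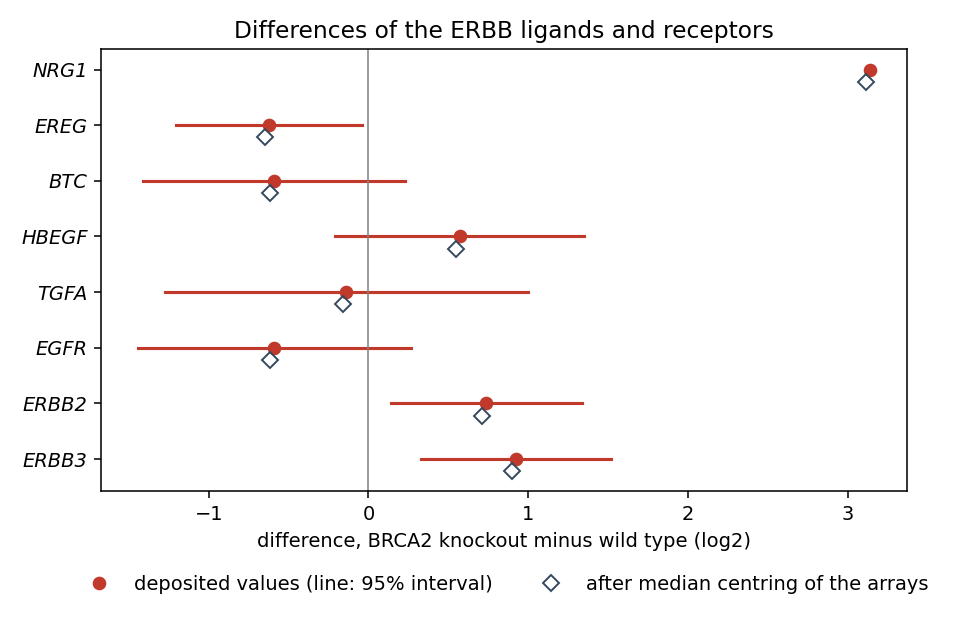
Difference between BRCA2 knockout and wild type for each measured member on the log2 scale, as deposited and after median centring, with lines for the 95% intervals of the members other than NRG1. NRG1 is at 3.14, the intervals of ERBB2 and ERBB3 lie above 0 and that of EREG below it.

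Sequence upstream of the genes was read for 2 members whose arrays did not overlap, 1 higher and 1 lower in the knockout. NRG1 and ERBB3, whose arrays did not overlap either and whose differences were larger, have no window printed here. The promoter windows of RefSeq (GRCh38.p14) run from 250 bases before to 50 bases after the gene start. ERBB2 lies on the plus strand at chr17:39687844-39688143 and EREG on the plus strand at chr4:74364895-74365194. Capitals mark matches, on either strand, to the TATA box TATAAA, the GC box GGGCGG, the ETS core CCGGAA or the AP-1 motif TGANTCA.
ERBB2: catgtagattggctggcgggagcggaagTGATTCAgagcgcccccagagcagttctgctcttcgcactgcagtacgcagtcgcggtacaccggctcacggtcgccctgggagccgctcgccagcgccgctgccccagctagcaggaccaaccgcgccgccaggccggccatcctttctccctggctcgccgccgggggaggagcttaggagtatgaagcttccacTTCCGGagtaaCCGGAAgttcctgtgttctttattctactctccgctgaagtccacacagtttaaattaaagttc
EREG: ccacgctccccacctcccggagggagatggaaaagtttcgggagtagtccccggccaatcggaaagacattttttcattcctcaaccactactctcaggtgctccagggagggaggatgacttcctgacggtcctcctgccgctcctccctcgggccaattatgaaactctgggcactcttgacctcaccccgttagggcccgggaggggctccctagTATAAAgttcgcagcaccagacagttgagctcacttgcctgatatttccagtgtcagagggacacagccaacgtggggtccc

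The ERBB2 window held 2 ETS cores in opposite orientation, starting at bases 226 and 237 counted from the first base printed, and 1 AP-1 motif at base 29. The EREG window held 1 TATA box, at base 219. None of these matches overlapped another. Of 35116 promoter windows of this length, 17.2% held the ETS core, 7.71% the AP-1 motif, 11.5% the TATA box and 45.0% the GC box, which neither window held. A match describes the letters of the window and not the binding of a factor. The windows are set by annotated gene starts, and which start HCT116 cells use was not tested. Whether a window also covers part of a neighbouring gene, such as PGAP3 on the lower-coordinate side of ERBB2, was not tested either.

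The genes next to each member on its chromosome were read to see whether a difference extended to neighbours. In RefSeq gene order, the measured genes on either side of the members came to 14 besides the members themselves, and none of the 14 was called in limma (2 at an unadjusted p under 0.05) or in the test without moderation, against 0.570% of all probe sets. Of all probe sets, 12.2% were under that unadjusted p, and the arrays did not overlap for 19.7%. NRG1, on chromosome 8, lies between WRN, a RecQ helicase gene, at -0.19 ± 0.66, and POFUT3, at 0.43 ± 0.28 (SE, limma adjusted p = 0.926 and 0.581). ERBB2, on chromosome 17, lies between PGAP3 and MIEN1, genes that are often amplified together with it in tumours. Their differences were -0.15 ± 0.31 and -0.07 ± 0.28, with 95% intervals of -0.87 to 0.57 and -0.74 to 0.60. LANCL2, beside EGFR on chromosome 7, was at 8.51, 9.41 and 8.83 on the knockout arrays and at 9.73, 9.52 and 9.77 on the wild-type arrays. Its difference of -0.76 ± 0.31 had the sign of the EGFR difference and no overlap of arrays (limma adjusted p = 0.391). EREG and BTC are next to each other among the measured genes of chromosome 4, between EPGN, the epigen gene, and PARM1. PARM1 was at 0.81 ± 0.31 (limma adjusted p = 0.354), opposite in sign to EREG and BTC, and its arrays did not overlap. PFDN1, beside HBEGF, was at -0.38 ± 0.27, also without overlap and opposite in sign to HBEGF (limma adjusted p = 0.609). PGAP3, MIEN1, LANCL2, PARM1 and PFDN1 were singled out after their values had been seen.

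Of the remaining ligands and ERBB4, 5 of 6 listed genes were measured and none was called, at either threshold. EGF was at 0.49 ± 0.56, NRG2 at 0.39 ± 0.39 and the receptor gene ERBB4 at 0.05 ± 0.40, with a 95% interval of -0.90 to 1.00. EPGN had the largest difference of the list, -0.51 ± 1.32, on values of -0.24, 3.27 and 2.82 in the knockout and 3.75, 3.86 and -0.23 in the wild type. Values that low are poorly determined, and EPGN changed sign in 5 alternatives. EGF, NRG2 and ERBB4 were picked after their values had been seen.

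The genes that act before and after the receptors were taken from 8 lists of 119 genes, of which 94 were measured. Of these, 3 were called higher and 1 lower in the knockout, or 4.26%, against 0.416% of all probe sets called higher and 0.154% lower. Over all genes the called share was 0.65%. Knockout and wild-type arrays were fully apart for 26 that were higher and 11 that were lower, or 39.4%, against 19.7% of all probe sets and 21.2% of all genes. The lists were chosen with earlier results of these data known, so these shares describe the lists and are not a test of them. The median difference was 0.06, against 0.07 over all genes. The called genes were spread over 4 lists, with 1 each for ligand release, adaptors, the RAS cascade and ERK targets. IRS2, RASGRP1 and EPHA4 lost their calls whichever array was left out, with limma adjusted p-values of 0.0738 to 0.246. ADAM19 lost its call without knockout array 3 or wild-type array 3 (limma adjusted p = 0.0572 and 0.0574). All 4 kept their sign. At an unadjusted p under 0.05, 17 of the 94 were higher and 7 lower, against 6.92% and 5.28% of all probe sets.

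**Figure D3:**
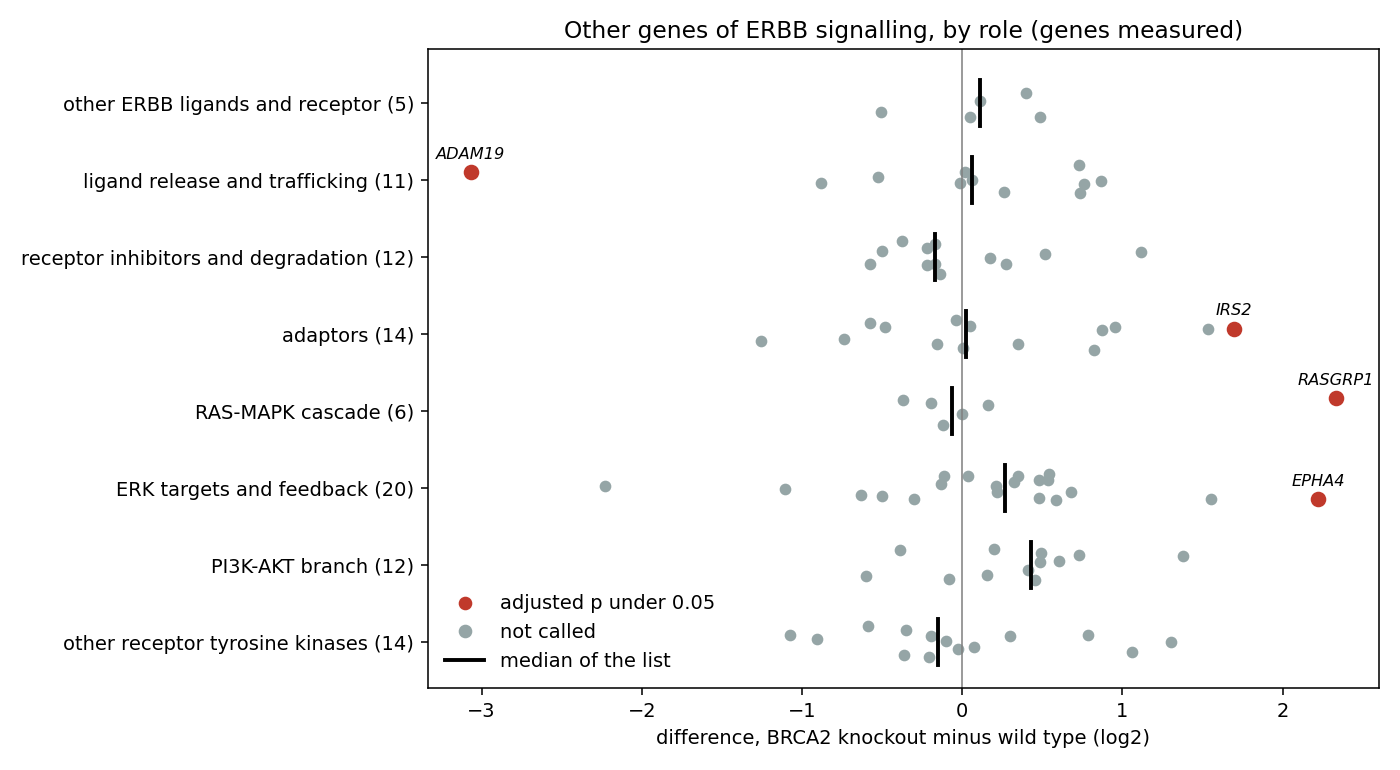
Log2 differences between BRCA2 knockout and wild type for 94 other genes of ERBB signalling in 8 lists, with 1 point per gene and the median of each list as a bar. The called genes are ADAM19 at -3.07, IRS2 at 1.70, RASGRP1 at 2.33 and EPHA4 at 2.22, while the list medians lie between -0.17 and 0.43.

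Among 11 measured genes for ligand release and trafficking, ADAM19 fell and no other was called. ADAM19 encodes a membrane metalloprotease that, in mouse, is known to cut neuregulin precursors. It was at 6.46, 7.10 and 6.69 on the knockout arrays and at 9.84, 9.85 and 9.76 on the wild-type arrays, far apart and with little spread in the wild type. The difference was -3.07 ± 0.27, or 8.38-fold lower in the knockout (limma adjusted p = 0.00667). NRG1 and ADAM19 thus had differences of opposite sign. BACE1, a protease gene that also acts on neuregulin precursors, was at -0.88 ± 0.26 (limma adjusted p = 0.248). RHBDF2, the gene of an inactive rhomboid protein that brings ADAM17 to the cell surface, was at 0.76 ± 0.26, and CD9, a tetraspanin gene, at 0.73 ± 0.27 (limma adjusted p = 0.299 and 0.354, with CD9 at 0.0380 under a variance trend). For these 3, picked after their values had been seen, the arrays did not overlap. Over the 11 genes of the list this held for 3 higher and 3 lower, or 54.5%, against 19.7% of all probe sets. ADAM10 and ADAM17 were not analysed here.

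Receptor inhibitors and degradation factors included no called gene among 12 measured, and 1 was higher at an unadjusted p under 0.05, against 6.92% of all probe sets. That gene was LRIG1, which encodes a membrane protein that lowers ERBB receptor levels. It was at 6.29, 7.53 and 7.07 on the knockout arrays and at 6.24, 5.65 and 5.65 on the wild-type arrays, so that the groups were apart by a narrow margin. The difference was 1.12 ± 0.39 (limma adjusted p = 0.309). ERRFI1, an inducible inhibitor of EGFR, was at -0.22 ± 0.31, with overlapping arrays, and was picked after its values had been seen.

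Of 14 measured adaptor genes, IRS2 rose, the unadjusted p was under 0.05 for 5 that were higher and 1 that was lower, and the arrays did not overlap for 6 higher and 2 lower, where 12.2% of all probe sets were under that p and 19.7% did not overlap. IRS2 encodes an insulin receptor substrate that links receptors to PI3-kinase. It was at 8.59, 8.66 and 9.05 on the knockout arrays and at 7.10, 6.97 and 7.15 on the wild-type arrays. The difference was 1.70 ± 0.26, or 3.24-fold (limma adjusted p = 0.0485), and the call was lost after median centring (adjusted p = 0.0573). GAB2, a docking protein gene, was at 1.53 ± 0.32, GRB2, the adaptor that recruits SOS to receptors, at 0.82 ± 0.26, and PLCG2, a phospholipase gene, at -1.25 ± 0.39 (limma adjusted p = 0.129, 0.264 and 0.261). These 3 were picked after their values had been seen, and GAB2 was called with array weights (limma adjusted p = 0.0323).

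In the RAS-MAPK cascade 6 of 15 listed genes were measured, and RASGRP1, a RAS exchange factor gene best known from lymphocytes, rose. Its values were 7.46, 8.03 and 8.00 on the knockout arrays and 5.75, 5.57 and 5.17 on the wild-type arrays. The difference was 2.33 ± 0.30, or 5.03-fold (limma adjusted p = 0.0267). The other 5 lay between -0.37 and 0.16.

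The 20 measured ERK targets and feedback genes had differences of both signs, with 13 above and 7 below 0 and a median of 0.27. The arrays did not overlap for 7 higher and 4 lower, or 55%, against 19.7% of all probe sets. At an unadjusted p under 0.05, 3 were higher and 3 lower, where 12.2% of all probe sets were under that p. EPHA4, an ephrin receptor gene, rose and was the list's called gene, at 7.74, 8.65 and 8.23 on the knockout arrays and 6.19, 6.17 and 5.59 on the wild-type arrays (difference 2.22 ± 0.34, limma adjusted p = 0.0490). DUSP6, the gene of an ERK phosphatase that ERK signalling induces, was at 11.12, 11.26 and 11.28 on the knockout arrays and at 12.38, 12.43 and 12.18 on the wild-type arrays. That difference of -1.11 ± 0.24 went with little spread but did not pass (limma adjusted p = 0.130), and DUSP6 was called with a variance trend (0.000302) and with array weights (0.0419). ETV1, an ETS factor gene, was at -2.23 ± 0.43 and passed in 6 of 16 alternatives (limma adjusted p = 0.0979 as deposited, 0.0022 to 0.0436 in those 6). ETV4 was at 0.68 ± 0.24, opposite in sign to ETV1 and without overlap, and ETV5 at -0.13 ± 0.41 (limma adjusted p = 0.314 and 0.756). FOS, an early response gene, was at 1.55 ± 0.28 and passed in 3 of 16 (limma adjusted p = 0.0893 as deposited, 0.0147 to 0.0319 in those 3). EGR1 at 0.53 ± 0.24, MYC at 0.54 ± 0.25 and CCND1, the cyclin D1 gene, at 0.48 ± 0.28 were higher on every knockout array, as were 12.0% of all probe sets, and were not called. All but EPHA4 were picked after their values had been seen.

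On the PI3K-AKT branch none of 12 measured genes was called in limma, 2 were higher at an unadjusted p under 0.05, and 9 of 12 had a difference above 0 (median 0.43). Of all probe sets, 6.92% were higher at that p, and the arrays did not overlap for 19.7%. INPP4B, the gene of a phosphatase that breaks down PI(3,4)P2, was at 10.11, 10.63 and 9.92 on the knockout arrays and at 9.11, 8.45 and 8.96 on the wild-type arrays. The groups did not overlap, and the difference was 1.38 ± 0.32 (limma adjusted p = 0.153). AKT1 and AKT2, the kinases of this branch, were at 0.45 ± 0.26 and 0.41 ± 0.24. Of 14 other receptor tyrosine kinases none was called in limma. The unadjusted p was under 0.05 for 3 with positive and 1 with negative differences, against 12.2% of all probe sets. IGF1R, the receptor gene of insulin-like growth factors, was at 9.19, 9.71 and 9.40 on the knockout arrays and at 8.38, 8.14 and 7.88 on the wild-type arrays, a difference of 1.30 ± 0.28 (limma adjusted p = 0.130). INPP4B and IGF1R were called with a variance trend (limma adjusted p = 0.0114 and 0.0274) and with array weights (0.0463 and 0.0224). AXL, the receptor gene for GAS6, was at -1.08 ± 0.26 (limma adjusted p = 0.173, and 0.0155 with a variance trend). AKT1, AKT2 and AXL were picked after their values had been seen.

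The genes whose profile was most like that of NRG1 were ranked by the Euclidean distance between log2 profiles over the 6 arrays, each centred on its own mean. Among 13138 genes the nearest were SMAD7 (distance 0.602), an inhibitor of TGF-beta signalling, and IFI44 (0.623), an interferon-induced gene. TCF21 (0.777), a transcription factor gene, ARHGDIB (0.816) and ITGB8 (0.901), an integrin gene, followed. SMAD7 was at 7.20, 7.80 and 6.54 on the knockout arrays and at 4.33, 4.39 and 3.97 on the wild-type arrays. In NRG1, SMAD7, IFI44, TCF21, ARHGDIB and ITGB8 alike, knockout array 2 had the highest value. They lie on other chromosomes than NRG1, and the distances are a description of 6 arrays. IFI44 had wild-type values of 1.77, 1.65 and 2.09, and its difference of 3.24 was 1.07 with values under 4 set to 4. Within the family, ERBB3 and ERBB2 came next to NRG1 at ranks 534 and 954 of the 13138 genes, while EREG was at rank 11493. The NRG1 profile is mostly its gap between genotypes, so these ranks largely restate the signs of the differences.

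**Figure D4:**
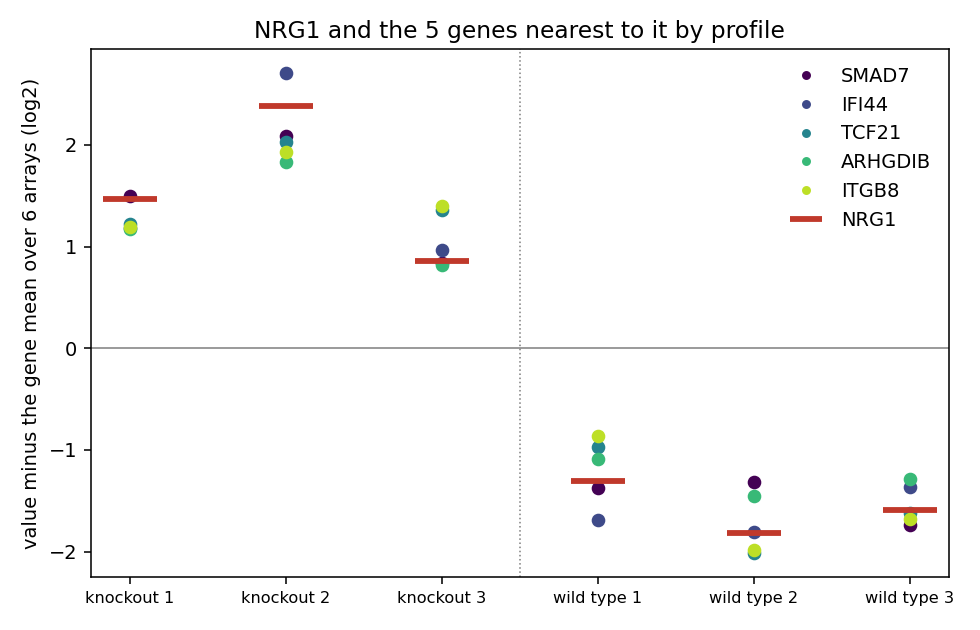
Values of NRG1 (bars) and of the 5 genes nearest to it (points) on the 3 BRCA2 knockout and 3 wild-type arrays, each minus its own mean over the 6 arrays, on the log2 scale. All 6 genes lie above 0 on the knockout arrays and below 0 on the wild-type arrays, with the highest values on knockout array 2.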

How the data were processed

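Total RNA of BRCA2 knockout and wild-type HCT116 cells was depleted of ribosomal RNA and hybridised to Affymetrix arrays, per the labels' protocols. The deposited values are log2 probe set summaries. The submitters' processing notes list R 2.11.1, RMA and genome build hg18. The array medians differ, so the deposited probe set values do not have the same distribution on every array. Whether a quantile step was applied before the summaries was not tested. Of 19458 probe sets, 13301 had 1 symbol in the platform annotation, 2044 several and 4113 none. RefSeq (GRCh38.p14) served for names, gene order and promoters, with 13280 identifiers found. For genes with several probe sets the brightest on average over the 6 arrays was used.

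Genotypes were compared with limma 3.58.1 (R 4.3.3; lmFit, eBayes, no filter, no block), with Benjamini-Hochberg adjustment over all probe sets, and a call is an adjusted p under 0.05. Differences are knockout minus wild type. Intervals are 95% intervals of that fit. The named genes were all members, called genes of each list or else the one of largest difference, the 5 nearest to NRG1 and its neighbours, and others are marked in the text. The members and lists were chosen with earlier results of these data known. In data simulated for this comparison (19458 probe sets), 2% of 50 changes of 1 were recovered, 48% of 2, 78% of 3 and 86% of 4 on the log2 scale, with 9 false among 116 calls. The simulated arrays varied independently, whereas in the deposited values knockout array 2 and wild-type array 1 deviated together (correlation 0.49). These rates therefore need not hold for the deposited values.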

Additional observations from a re-analysis of the deposited data

How the results depend on the processing

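The NRG1 difference stayed between 2.73 and 3.50 in 17 alternatives, and no alternative moved it by more than the spread between arrays. Several of the 17 could not move it. It was 3.14 by construction without moderation, with a replicate block, with a robust variance and with a variance trend. The same held with values under 4 set to 4, without the dimmest 30% and over all probe sets of NRG1, which has 1. Counts of calls depended on the variance model and on the arrays, and the cause was not tested. The 111 called probe sets became 175 after median centring, 174 after quantile normalization, 184 without the dimmest 30%, 169 with values under 4 set to 4, 396 with a variance trend and 778 with array weights. They became 7 without both arrays of highest median and 24 to 63 with 1 array left out. Called members other than NRG1 (0) became 1 with a variance trend (EREG) or array weights (ERBB3). They stayed at 0 without moderation, without both arrays of highest median and with 1 array left out. Called pathway genes (4) became 1 without moderation, 10 with array weights, 11 with a variance trend, 0 without both arrays of highest median, and 0 to 2 with 1 array left out. At an unadjusted p under 0.05 there were 24. Members lower without overlap (1) became 3 after median centring and quantile normalization and 2 without both arrays of highest median, 1 to 2 with 1 array left out. Members higher without overlap ran from 3 to 4. Both counts are over all 8 measured members, and NRG1, on which the family was selected, is among the higher ones. Of all probe sets, 12.0% were higher and 7.70% lower without overlap as deposited, and 9.80% and 10.8% after median centring. Of the 5 genes nearest to NRG1, 3 were among the nearest 5 with values under 4 set to 4, 1 without both arrays of highest median and 2 to 4 with 1 array left out.

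With the replicate number as a block, 3 probe sets, 0 members and 0 pathway genes were called. Same-numbered arrays did not deviate together (correlations of -0.24, -0.43 and 0.06). Knockout array 2 and wild-type array 1, the arrays of highest median, did so most, with a correlation of 0.49. Over all probe sets, knockout array 2 correlated with wild-type array 1 at 0.924. With knockout arrays 1 and 3 it correlated at 0.876 and 0.893. The cause was not tested. Signs turned for EPGN (with 1 array left out -1.86 to 0.59, 1.32 with array weights, 0.43 after quantile normalization). They also turned with 1 array left out for TGFA (-0.48 to 0.28), WRN (-0.72 to 0.39), PGAP3 (-0.32 to 0.093), MIEN1 (-0.24 to 0.054) and ERRFI1 (-0.41 to 0.011). Calls were kept in 12 of 16 alternatives for ADAM19, 7 each for RASGRP1 and EPHA4, and 6 for IRS2.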
